A study of Mus musculus with 22 samples.

Results

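The genes described here are markers of lymphoid cells, read in dendritic cells (DCs) that were sorted from the pancreas. The list held 47 genes, namely 18 of natural killer (NK) and cytotoxic cells, 3 of innate lymphoid cells (ILCs), 17 of T cells and 9 of B cells, and 43 of them had a probe set of their own (16, 3, 15 and 9) among 18193 genes named alone on the array. Klrb1c and Klra3 were named only together with another gene and Lck and Tcf7 were not named in the annotation used here, so none of these has a value. Where a gene had several probe sets, the one with the highest mean over the 22 arrays stood for it. The study compared CD11c+CD8α- DCs of the NOD mouse, a model of type 1 diabetes, with those of the C57BL/6 mouse, both from females of 5 weeks of age, before diabetes. Cells were lysed directly after the sort (steady state, 3 NOD and 4 C57BL/6 arrays), or were cultured for 18 hours with PBS (4 NOD and 4 C57BL/6 arrays) or with lipopolysaccharide, LPS (4 NOD and 3 C57BL/6 arrays), and each array was a pool of 10 pancreases. CD45+ cells were enriched first and then sorted on CD11c and CD8α, and apart from CD8α, which cytotoxic T cells also carry and which was gated out, the methods of the study name no antibody against NK, T or B cells in that sort. The methods also state that the sorted cells were checked again after the sort, and report a high purity. A whole population was measured on each array, so fewer cells of a type and less RNA per cell cannot be told apart.

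NK cells are innate lymphocytes that kill with perforin and granzymes and are steered by activating and inhibitory receptors of the Klr and Ly49 families. Their differentiation depends on the T-box factors encoded by Tbx21 and Eomes and on interleukin-15, which is read through the receptor chain encoded by Il2rb. ILCs are the related cells that depend on Gata3, Rora or other factors and carry the interleukin-7 receptor. NK cells of the mouse can carry CD11c, and some DCs express Cd4 themselves, so not every gene of the list belongs to lymphoid cells alone.

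Of the 12 NK genes that were lower in NOD DCs at steady state, 10 had a promoter in the RefSeq table (GRCm38.p6, 250 bases before to 50 after the gene start). These were searched on both strands for the core of the T-box factors (TCACAC), of the RUNX factors (TGTGGT) and of the ETS factors (GGAAGT). A T-box core stood in 5 of the 10 promoters, against 14.4% of all 27025 genes in the table. For the RUNX core these figures were 6 of 10 (60.0%) against 16.9%, and for the ETS core 2 of 10 (20.0%) against 24.1%. Both a T-box and a RUNX core stood in Ncr1, Gzmb, Klre1 and Nkg7, 40.0% of the 10 promoters, against 2.96% of all genes. These 4 are shown because they hold both cores, so they are no neutral sample of the 10. The promoters of Klra8 and Eomes held none of the 3 cores. The 4 belong to an activating receptor of NK cells, a granzyme, a Klr receptor and a granule protein described here with their levels. They lie at chr7:4337465-4337764 on the plus strand (Ncr1), chr14:56262285-56262584 on the minus strand (Gzmb), chr6:129577963-129578262 on the plus strand (Klre1) and chr7:43436888-43437187 on the plus strand (Nkg7). Each is printed in the direction of its gene, and capitals mark the T-box and RUNX cores on either strand (GTGTGA and ACCACA on the opposite one). A match is a run of letters and no measured binding site. All 10 promoters come from a list of NK genes, and they were not compared with those of NK genes that were not lower in NOD. A link between the cores and the strain difference was therefore not tested.
Ncr1: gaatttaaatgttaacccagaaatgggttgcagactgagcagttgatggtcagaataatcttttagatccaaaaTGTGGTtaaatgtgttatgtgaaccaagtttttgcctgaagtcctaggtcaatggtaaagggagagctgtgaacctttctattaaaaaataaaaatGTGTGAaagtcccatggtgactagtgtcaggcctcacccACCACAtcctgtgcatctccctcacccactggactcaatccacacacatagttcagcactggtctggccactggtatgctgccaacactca
Gzmb: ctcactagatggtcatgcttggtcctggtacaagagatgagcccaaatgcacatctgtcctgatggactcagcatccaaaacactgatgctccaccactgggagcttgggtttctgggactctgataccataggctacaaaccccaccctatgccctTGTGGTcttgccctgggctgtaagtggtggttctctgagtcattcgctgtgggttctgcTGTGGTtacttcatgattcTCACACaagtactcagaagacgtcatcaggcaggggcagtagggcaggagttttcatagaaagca
Klre1: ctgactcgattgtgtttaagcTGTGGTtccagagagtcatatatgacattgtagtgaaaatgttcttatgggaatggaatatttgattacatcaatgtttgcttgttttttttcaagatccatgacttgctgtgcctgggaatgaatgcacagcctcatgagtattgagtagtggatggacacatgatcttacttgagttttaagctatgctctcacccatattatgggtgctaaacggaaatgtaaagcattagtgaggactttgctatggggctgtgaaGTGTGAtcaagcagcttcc
Nkg7: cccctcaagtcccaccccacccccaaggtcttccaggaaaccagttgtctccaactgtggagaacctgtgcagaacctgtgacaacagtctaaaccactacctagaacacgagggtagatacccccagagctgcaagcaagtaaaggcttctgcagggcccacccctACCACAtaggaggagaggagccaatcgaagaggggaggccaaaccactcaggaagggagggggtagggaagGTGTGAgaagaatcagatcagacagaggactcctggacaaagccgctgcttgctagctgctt

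Values were on the log2 scale, where a difference of 1 is a 2-fold difference, and all differences are NOD minus C57BL/6, culture minus steady state or LPS minus PBS. The medians of the 22 arrays lay between 7.63 and 7.68 and their lower quartiles between 6.03 and 6.36. Arrays of a group correlated with r between 0.984 and 0.997 over all probe sets, and none was a copy of another. The DC label was checked on 14 genes of conventional DCs, whose mean level lay between 11.09 and 11.20 in NOD and between 11.24 and 11.34 in C57BL/6 DCs at steady state (4 lower in NOD, none higher). Genes of the exocrine pancreas stood at 12.68 to 13.75 in NOD and 13.15 to 13.65 in C57BL/6 DCs directly after the sort (mean of 6 genes), and their strain difference passed the test in none of the 6. In PBS culture these 6 genes lay between 8.68 and 12.43 in NOD and between 8.21 and 12.01 in C57BL/6 DCs. Genes of macrophages and monocytes had means of 13.39 to 13.45 in NOD and 13.29 to 13.49 in C57BL/6 DCs at steady state (10 genes, 1 higher and 1 lower in NOD). In PBS culture 5 of the 14 conventional DC genes were lower and 1 higher in NOD (median −0.25), with means of 10.29 to 10.60 in NOD and 10.71 to 10.91 in C57BL/6 DCs and summed linear levels of 51950 to 63890 in NOD and 79010 to 88910 in C57BL/6. With LPS 6 were lower and 1 higher (median −0.36), with means of 10.44 to 10.56 in NOD and 10.75 to 10.84 in C57BL/6 DCs and sums of 56780 to 62060 in NOD and 77880 to 85130 in C57BL/6. Of the macrophage genes 3 of 10 were lower in NOD in each culture, with means of 12.34 to 12.50 in NOD and 12.57 to 12.78 in C57BL/6 DCs with PBS and of 11.96 to 12.06 in NOD and 12.18 to 12.37 in C57BL/6 DCs with LPS. Of 9 genes of plasmacytoid DCs, 3 were higher and 1 lower in NOD DCs at steady state, Siglech by 1.67. Over the whole array, the strain comparison at steady state called 7.94% of probe sets as lower and 7.09% as higher. With PBS these shares were 5.09% and 4.78%, and with LPS 4.88% and 5.03%. The macrophage counts at steady state were near the shares of that condition. The arrays of the strains thus did not overlap in the mean of the conventional DC genes in any condition, nor in that of the macrophage genes in either culture. The part of these cells in the results below was not tested.

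The largest difference of the list was in the NK genes, which were lower in NOD DCs. At steady state 12 of 16 passed the test as lower and none as higher, against 7.94% lower and 7.09% higher among all probe sets. A call means an adjusted p under 0.1 over all probe sets, in a fit that leaves arrays unpaired unless stated. Their median difference was −1.03, against 0.04 over all probe sets. In PBS culture 10 of 16 were lower (background 5.09% lower and 4.78% higher) and in LPS culture again 10 of 16 (4.88% lower and 5.03% higher). The 3 comparisons share no array, although arrays of 1 number may come from 1 pool. This includes steady state arrays, since the methods state that part of the sorted cells was lysed directly and the rest cultured. Ncr1, Klrk1, Klrd1, Klre1, Nkg7, Tbx21, Il2rb, Klra8 and Txk were lower in all 3. A fit with the replicate number as a block called more of the array, with 10.7% of all probe sets lower and 10.3% higher at steady state, 7.68% and 7.47% in PBS culture and 5.97% and 5.76% in LPS culture. An array with no partner of its number adds nothing to the blocked difference, which concerned C57BL/6 replicate 5 at steady state and NOD replicate 1 with LPS.

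Ncr1 encodes NKp46, an activating receptor of NK cells. It stood at 6.92, 7.10 and 7.33 in NOD DCs at steady state, against 8.57, 8.49, 8.62 and 8.61 in C57BL/6 DCs. The arrays of the strains did not overlap, and the difference was −1.46 ± 0.11 (SE, adjusted p = 1.38e-05, limma). In PBS culture Ncr1 was at 6.53, 6.85, 6.44 and 6.67 in NOD and 8.09, 8.35, 7.68 and 8.56 in C57BL/6 DCs (−1.54 ± 0.18, adjusted p = 0.00033). With LPS it was at 6.41, 6.71, 6.89 and 6.42 in NOD and 8.14, 7.60 and 8.23 in C57BL/6 DCs (−1.39 ± 0.18, adjusted p = 0.00156). Thus every NOD array lay below every C57BL/6 array of its condition. Nkg7, a protein of cytotoxic granules, was at 8.96, 9.28 and 9.21 in NOD DCs at steady state, against 10.39, 10.08, 10.23 and 10.37 in C57BL/6 DCs, and differed by −1.12, −1.42 and −1.45 at steady state, in PBS and in LPS culture.

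**Figure D1:**
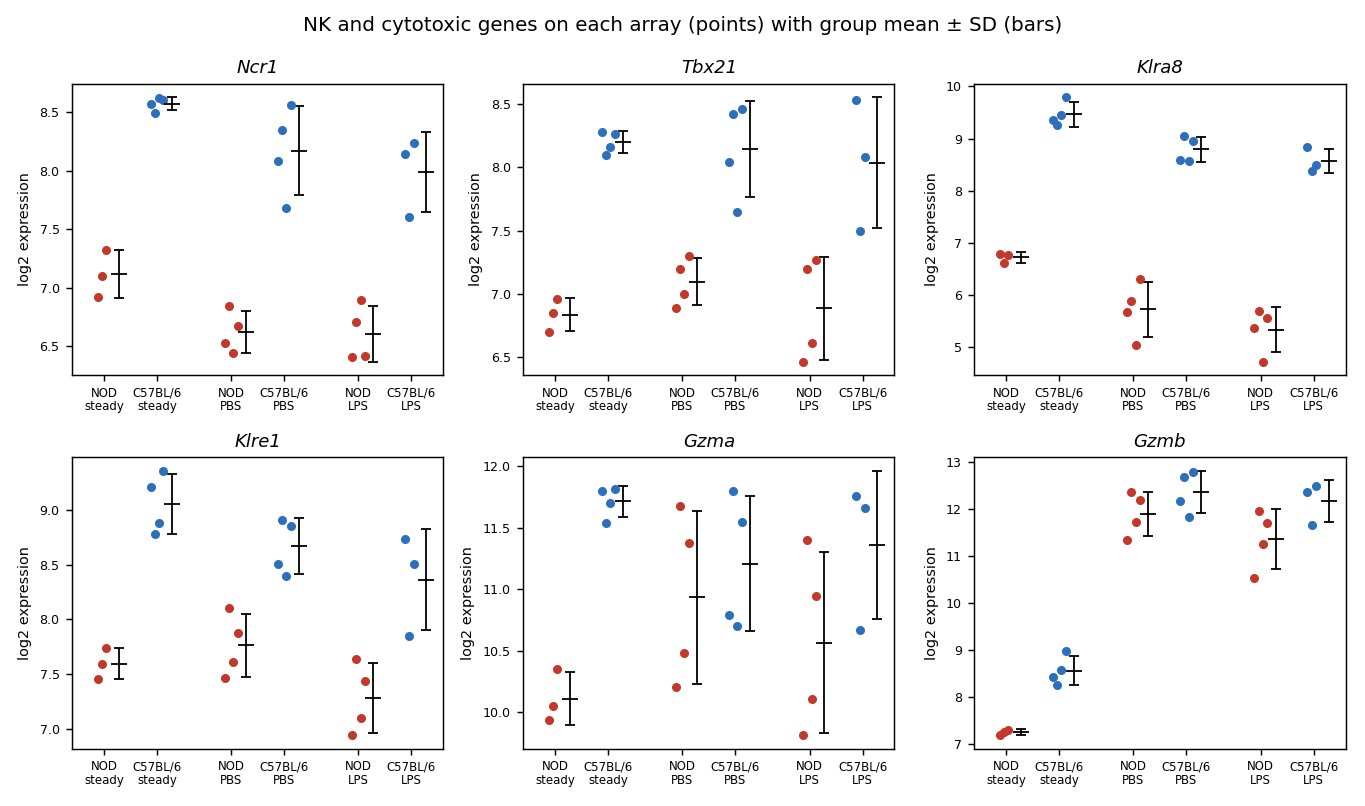
Log2 expression of 6 NK and cytotoxic genes (y axis) on each array by group (x axis), with points for arrays and bars for the group mean ± SD. NOD arrays lie below all C57BL/6 arrays of the same condition for Ncr1, Tbx21, Klra8 and Klre1, whereas Gzma and Gzmb separate only at steady state.

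The transcription factor Tbx21 (T-bet) was at 6.70, 6.85 and 6.96 in NOD DCs at steady state, against 8.28, 8.09, 8.16 and 8.26 in C57BL/6 DCs (−1.36 ± 0.10, adjusted p = 1.21e-05). It was also lower in PBS culture (−1.04 ± 0.18, adjusted p = 0.00447) and LPS culture (−1.15 ± 0.26, adjusted p = 0.0282). Its relative Eomes was called only at steady state, where it was at 6.79, 7.43 and 7.18 in NOD DCs and 7.97, 7.70, 7.92 and 8.43 in C57BL/6 DCs (−0.87 ± 0.18, adjusted p = 0.0123). In culture Eomes differed by −0.47 and −0.61 without passing. With the replicate number as a block it passed in PBS culture (adjusted p = 0.0327). Txk, a kinase of the Tec family in T and NK cells, was lower by 0.46, 0.78 and 0.99 in the 3 conditions, and its call with LPS was lost without C57BL/6 replicate 2 (−0.93) or 4 (−0.92).

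Among the receptors, Klra8 (Ly49H) had the largest difference of the list. It was at 6.79, 6.61 and 6.77 in NOD DCs at steady state, against 9.35, 9.26, 9.45 and 9.80 in C57BL/6 DCs (−2.74 ± 0.13, adjusted p = 4.93e-07). In the PBS cultures it was at 5.68, 5.88, 5.03 and 6.30 in NOD and 8.59, 9.06, 8.57 and 8.95 in C57BL/6 DCs (−3.07 ± 0.23, adjusted p = 1.28e-05). With LPS it stood at 5.36, 5.70, 4.72 and 5.55 in NOD and 8.83, 8.38 and 8.49 in C57BL/6 DCs (−3.23 ± 0.22, adjusted p = 2.49e-05). Klra8 was below the lower quartile of the array on 7 arrays, all of NOD cultures. The Ly49 gene cluster is known to differ in gene content between mouse strains and its members are close in sequence, so a probe set made for 1 member may also read another.

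Klra7 (Ly49G), the other Ly49 gene with a value, went another way at steady state. It was at 8.50, 7.39 and 7.62 in NOD DCs, against 7.39, 7.44, 7.71 and 8.07 in C57BL/6 DCs, and the groups overlapped (0.18 ± 0.25, adjusted p = 0.686). With PBS it was at 6.12, 6.52, 6.64 and 6.70 in NOD and 7.96, 8.38, 7.69 and 8.07 in C57BL/6 DCs (−1.53 ± 0.17, adjusted p = 0.000243). With LPS the difference was −1.49 ± 0.18 (adjusted p = 0.00104). A dimmer probe set of Klra7 did not follow this. It was higher at steady state, at 6.68, 6.79 and 6.62 in NOD and 5.93, 6.27, 6.36 and 6.27 in C57BL/6 DCs (0.49), and differed by only −0.13 and −0.19 in the cultures.

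Of the Klr receptors beside the Ly49 genes, Klrd1, Klre1 and Klrk1 were lower in every condition, as Ncr1 was, and Klrg1 was not. Klrd1 (CD94), which pairs with NKG2 proteins, was at 9.89, 9.52 and 10.00 in NOD DCs at steady state, against 10.85, 10.62, 10.78 and 11.06 in C57BL/6 DCs (−1.03 ± 0.14, adjusted p = 0.000816). In PBS culture it was at 8.35, 9.0, 8.67 and 8.95 in NOD and 10.32, 10.77, 9.93 and 10.45 in C57BL/6 DCs (−1.62 ± 0.19, adjusted p = 0.000364). With LPS it was at 7.66, 8.88, 8.35 and 8.63 in NOD and 10.32, 10.05 and 10.40 in C57BL/6 DCs (−1.88 ± 0.25, adjusted p = 0.00163). The 2 strains thus did not overlap for Klrd1 in any condition. Klre1 was at 7.45, 7.59 and 7.74 in NOD DCs at steady state, against 9.21, 8.78, 8.88 and 9.37 in C57BL/6 DCs (−1.47 ± 0.15, adjusted p = 0.000103), and lower by 0.91 and 1.09 in PBS and LPS culture.

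Klrk1 (NKG2D), an activating receptor for stress ligands, differed least at steady state and most with LPS. It was at 9.34, 9.87 and 9.52 in NOD DCs at steady state, against 10.12, 10.14, 10.26 and 10.16 in C57BL/6 DCs (−0.59 ± 0.13, adjusted p = 0.0125). With LPS it was at 8.98, 9.73, 9.20 and 8.85 in NOD and 11.01, 10.57 and 10.91 in C57BL/6 DCs (−1.64 ± 0.21, adjusted p = 0.00118). The change of the strain difference with culture did not pass the test for Klrk1 (−0.56, adjusted p = 0.332), but did with the replicate block (−0.59, adjusted p = 0.0746). Klrg1, an inhibitory receptor of mature NK and T cells, passed in no strain comparison (−0.44, 0.41 and 0.00, in the order steady state, PBS, LPS). Its steady state difference passed with the replicate block (−0.40, adjusted p = 0.0886).

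The granzymes were called lower in NOD DCs at steady state but not in culture. Gzma (granzyme A) was at 9.94, 10.05 and 10.35 in NOD and 11.80, 11.54, 11.70 and 11.82 in C57BL/6 DCs (−1.61 ± 0.12, adjusted p = 1.29e-05). Cultured with PBS, it was at 10.21, 11.68, 10.48 and 11.38 in NOD and 10.79, 11.80, 10.70 and 11.55 in C57BL/6 DCs, so that the strains overlapped (−0.27 ± 0.34, adjusted p = 0.737). Gzmb (granzyme B) was at 7.18, 7.26 and 7.31 in NOD DCs at steady state, against 8.43, 8.25, 8.57 and 8.98 in C57BL/6 DCs (−1.31 ± 0.15, adjusted p = 0.000294). Its differences in PBS and LPS culture were −0.47 and −0.81 and did not pass, but did with the replicate block (−0.47, adjusted p = 0.0664, and −0.53, adjusted p = 0.0649). Gzma passed with the block in LPS culture (−0.54, adjusted p = 0.0512). Without NOD LPS replicate 1, which the block does not use, and with no block, Gzmb had the same difference of −0.53 (adjusted p = 0.292) and Gzma that of −0.54 (adjusted p = 0.507).

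The probe sets of Prf1, which encodes perforin, disagreed. The brighter one was at 10.25, 10.44 and 10.33 in NOD DCs at steady state and 10.29, 10.35, 10.22 and 10.19 in C57BL/6 DCs, and stayed within 0.08 between the strains in every condition. The dimmer one was at 7.22, 7.47 and 7.36 in NOD and 7.65, 7.94, 7.81 and 7.47 in C57BL/6 DCs, and was called lower at steady state (−0.37), in PBS culture (−0.73) and in LPS culture (−0.74). In PBS culture it was at 7.73, 8.47, 8.11 and 8.47 in NOD and 8.63, 9.38, 8.50 and 9.18 in C57BL/6 DCs. Cd160, a receptor of NK and T cells, was at 7.34, 7.38 and 7.45 in NOD and 7.65, 7.47, 7.54 and 7.38 in C57BL/6 DCs at steady state by its brightest probe set (−0.12, adjusted p = 0.484). In PBS culture the brightest one passed with the replicate block only (−0.33, adjusted p = 0.0564). Its 3 dimmer probe sets lay, at steady state, between 6.79 and 7.51 in NOD and between 7.23 and 7.80 in C57BL/6 DCs, and were lower by 0.41, 0.45 and 0.24, of which the first and second passed, and all 3 passed as lower in PBS culture.

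In each group 1 array held the lowest value of most NK genes. At steady state NOD replicate 1 had the lowest value of 13 of the 16 genes and C57BL/6 replicate 4 that of 11. Among the 4 NOD PBS arrays, replicate 1 had the lowest value of 13 of the 16 genes, and among the 4 NOD LPS arrays replicate 1 again had the lowest of 13. Among the C57BL/6 arrays replicate 3 was lowest for 13 genes with PBS and for 15 with LPS. The mean of the 16 genes lay at 8.19, 8.81, 8.43 and 8.80 in NOD PBS replicates 1 to 4 and at 9.38, 9.78, 9.22 and 9.71 in those of C57BL/6. In LPS culture these means were 7.88, 8.71, 8.23 and 8.49 in NOD replicates 1 to 4 and 9.65, 9.11 and 9.56 in C57BL/6 replicates 2 to 4. At steady state the means were closer together, at 8.02 to 8.20 in NOD and 8.95 to 9.24 in C57BL/6 DCs. The highest NOD array was below the lowest C57BL/6 array in each condition.

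**Figure D2:**
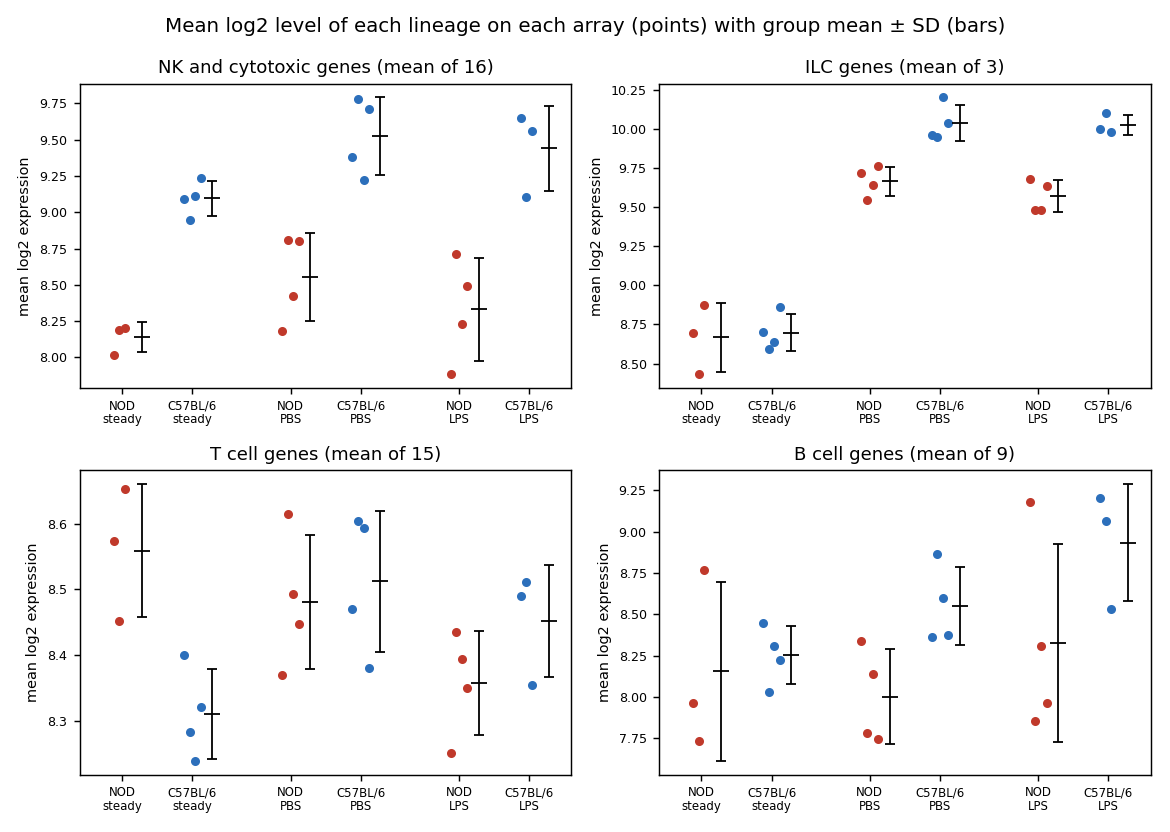
Mean log2 level of the NK and cytotoxic, ILC, T cell and B cell genes (y axis) on each array by group (x axis), with points for arrays and bars for the group mean ± SD. The NK genes separate the strains in all 3 conditions, the T cell genes only at steady state, and the B cell genes overlap between the strains at steady state and with LPS.

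Of the 3 ILC genes, Gata3 was lower in NOD DCs in each condition and the other 2 were not called. Gata3, a transcription factor of ILCs and T helper cells, was at 6.66, 6.66 and 6.88 in NOD DCs at steady state, against 7.20, 7.19, 6.99 and 7.27 in C57BL/6 DCs (−0.43 ± 0.11, adjusted p = 0.0277). In PBS culture it was at 7.22, 7.11, 7.05 and 7.10 in NOD and 7.85, 7.86, 8.47 and 7.68 in C57BL/6 DCs (−0.85 ± 0.16, adjusted p = 0.00764), and with LPS the difference was −0.95 ± 0.21 (adjusted p = 0.0225). No NOD array reached a C57BL/6 array of its condition. Rora, a nuclear receptor needed for the second ILC class, was at 9.36, 9.28 and 9.61 in NOD and 9.35, 9.22, 9.34 and 9.58 in C57BL/6 DCs at steady state (0.04 ± 0.12, adjusted p = 0.859). Of its 9 probe sets, 1 dimmer one was called in the strain comparisons, higher at steady state (7.96, 8.32 and 8.32 in NOD, against 7.75, 7.86, 7.81 and 7.96 in C57BL/6 DCs, difference 0.36) and lower in PBS culture (−0.42). Il7r, the alpha chain of the interleukin-7 receptor, was at 10.07, 9.37 and 10.13 in NOD and 9.56, 9.37, 9.58 and 9.73 in C57BL/6 DCs at steady state (0.30 ± 0.17, adjusted p = 0.325). Its dimmer probe set was at 7.57, 7.57 and 8.07 in NOD and 7.27, 7.28, 7.37 and 7.33 in C57BL/6 DCs and was called higher (0.42).

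Of 15 T cell genes 4 were higher in NOD DCs at steady state, none was lower and 11 were not called (7.09% higher and 7.94% lower among all probe sets), with a median of 0.22 against 0.04 over all probe sets. Of 15 other T cell genes 1 was higher and 5 were lower. Cd4, the coreceptor of helper T cells that DCs can also express, was at 11.01, 11.44 and 10.96 in NOD DCs, against 10.28, 9.89, 9.62 and 9.81 in C57BL/6 DCs (1.24 ± 0.17, adjusted p = 0.000746). Cd3e, a chain of the T cell receptor complex, was at 8.97, 9.50 and 9.69 in NOD and 8.88, 8.57, 8.43 and 8.49 in C57BL/6 DCs (0.79 ± 0.17, adjusted p = 0.0133). All NOD arrays were above all C57BL/6 arrays for both genes. The other chains of the complex were not called, with differences of 0.24 for Cd3d, 0.26 for Cd3g and −0.21 for Cd247. The replicate block added Cd3g (−0.36, adjusted p = 0.0571) and Lat (0.36, adjusted p = 0.0995) in PBS culture and Cd3e (0.57, adjusted p = 0.0317) in LPS culture. Cd3e also passed with no block when NOD LPS replicate 1 was left out (0.57, adjusted p = 0.0642).

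The 2 other calls were weaker. Cd5, an inhibitory surface receptor of T cells, was at 7.47, 7.35 and 7.54 in NOD DCs, against 7.43, 6.94, 6.92 and 6.88 in C57BL/6 DCs (0.41 ± 0.14, adjusted p = 0.0975). The call was lost when any of 6 arrays was left out and stayed only without C57BL/6 replicate 1, the single C57BL/6 array above 7. Bcl11b, a transcription factor of T cell commitment, was at 8.19, 8.20 and 8.12 in NOD and 8.01, 7.55, 7.72 and 7.80 in C57BL/6 DCs (0.40 ± 0.12, adjusted p = 0.0555). Its call was lost without C57BL/6 replicate 4 (0.32) or 5 (0.38) or NOD replicate 4 (0.38) or 6 (0.42). The 3 dimmer probe sets of Bcl11b differed by 0.34, 0.34 and 0.23 and were not called. Cd6, Cd28, Zap70, Lat, Lef1, Cd8a, Cd8b1 and Foxp3 passed in neither direction at steady state, with differences between −0.32 for Cd28 and 0.29 for Lef1.

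In culture none of these 4 genes was called by its brightest probe set, and others were. Cd4 was at 9.75, 10.32, 9.90 and 9.89 in NOD and 9.89, 9.95, 9.54 and 9.32 in C57BL/6 PBS cultures (0.29 ± 0.17, adjusted p = 0.407). A dimmer probe set of Cd4 was at 8.52, 8.79, 8.33 and 8.54 in NOD and 7.87, 8.10, 7.36 and 7.83 in C57BL/6 PBS cultures and was called higher (0.76). Foxp3, the factor of regulatory T cells, was at 9.58, 9.44, 9.73 and 9.60 in NOD and 9.30, 8.75, 9.23 and 9.17 in C57BL/6 PBS cultures (0.47 ± 0.14, adjusted p = 0.0662). With LPS it was at 9.71, 9.71, 9.78 and 9.64 in NOD and 9.22, 9.01 and 9.36 in C57BL/6 DCs (0.51 ± 0.12, adjusted p = 0.0312). The NOD arrays were above the C57BL/6 arrays in both. The call with PBS was lost without C57BL/6 replicate 2 (0.35) or 4 (0.49) or NOD replicate 1 (0.48), 3 (0.43) or 4 (0.47), and that with LPS without C57BL/6 replicate 3 (0.42).

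The coreceptor genes of cytotoxic T cells were lower in NOD DCs with LPS. Cd8a, the gene of the antigen that the sort gated out, was at 8.06, 8.59, 8.24 and 8.11 in NOD and 8.65, 9.08 and 8.67 in C57BL/6 LPS cultures (−0.55 ± 0.16, adjusted p = 0.0801). At steady state it was at 7.84, 7.63 and 7.86 in NOD and 7.59, 7.66, 7.22 and 7.77 in C57BL/6 DCs (0.22 ± 0.14, adjusted p = 0.353). In PBS culture it was at 8.44, 8.66, 8.25 and 8.44 in NOD and 8.80, 9.02, 10.34 and 8.79 in C57BL/6 DCs, where replicate 3 stood apart (−0.79 ± 0.29, adjusted p = 0.155). The LPS call was lost without any 1 array other than NOD replicate 2 (−0.62 to −0.41) and with the replicate block (−0.49, adjusted p = 0.153), which leaves NOD replicate 1 unused (−0.49, adjusted p = 0.156 without it and with no block). A dimmer probe set of Cd8a was at 6.77, 6.78, 7.0 and 7.19 in NOD and 8.18, 8.47, 8.24 and 7.92 in C57BL/6 PBS cultures, a called difference of −1.26. Another was called lower there as well (−0.60) but was below the lower quartile of the array on all 22 arrays, and the 2 remaining ones were not called.

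Cd8b1 with LPS was at 7.67, 7.58, 7.63 and 7.50 in NOD and 8.21, 8.20 and 7.83 in C57BL/6 DCs (−0.48 ± 0.13, adjusted p = 0.0555). This call was lost without C57BL/6 replicate 2 (−0.42) or 3 (−0.42) or NOD replicate 2 (−0.48), 3 (−0.50) or 4 (−0.45). Cd28, a costimulatory receptor, was at 6.84, 7.21, 6.74 and 7.32 in NOD and 7.52, 7.99 and 7.69 in C57BL/6 LPS cultures (−0.71 ± 0.17, adjusted p = 0.0389). It was lost without C57BL/6 replicate 3 (−0.58) and with the replicate block (−0.64, adjusted p = 0.127), but not with NOD replicate 1 left out and no block (−0.64, adjusted p = 0.0821). Its dimmer probe set was at 6.45, 6.63, 6.08 and 6.57 in NOD and 6.69, 6.61 and 6.56 in C57BL/6 LPS cultures and was not called (−0.19). Zap70, a kinase of T cell receptor signalling, was uncalled between the strains by its brightest probe set (−0.14, −0.18 and 0.00). A dimmer one was higher in NOD PBS cultures, at 8.15, 7.95, 8.31 and 8.32, against 7.61, 7.70, 7.36 and 7.35 in C57BL/6 (0.68). Cd6, Lat, Lef1, Cd3d, Cd3g and Cd247 were not called between the strains in culture, with differences from −0.36 to 0.36.

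**Figure D3:**
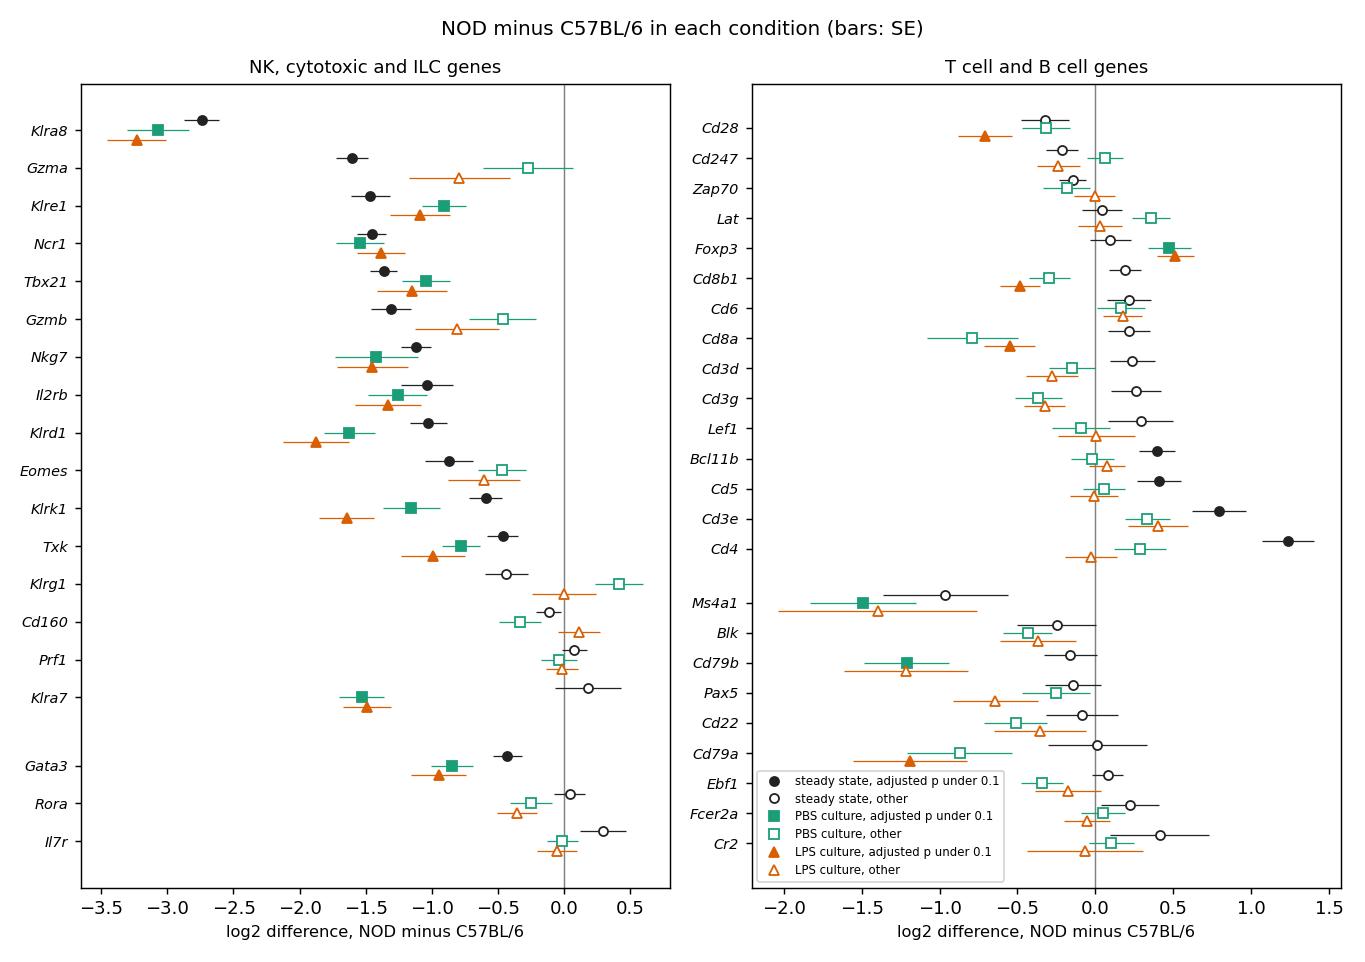
Log2 difference, NOD minus C57BL/6 (x axis), of each of the 43 genes (y axis, ordered within a lineage by the steady state value) at steady state, in PBS culture and in LPS culture, with SE bars and filled symbols for an adjusted p under 0.1. The NK genes lie mostly left of 0 in all 3 conditions, while Cd4 and Cd3e lie right of it at steady state.

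With no block, the 9 B cell genes of the list were called between the strains only in culture, all as lower in NOD. Among 14 other B cell genes, 6 were lower and 2 higher at steady state (7.94% lower and 7.09% higher among all probe sets). Of the 9, none was called at steady state (1 at an unadjusted p under 0.05, background 7.94% lower). With PBS 2 were called (6 at an unadjusted p under 0.05, median −0.43, background 5.09% lower). With LPS 1 was called (3 at an unadjusted p under 0.05, median −0.37, background 4.88% lower). The mean of the 9 genes lay at 7.744 to 8.337 in NOD and 8.365 to 8.862 in C57BL/6 PBS cultures, with no overlap. The LPS call, Cd79a, was lost in 5 of 7 cases when 1 array was left out. The change of the strain difference with culture was called for 0 of the 9 by limma (2 at an unadjusted p under 0.05). Cd79a, a chain of the B cell receptor complex, was at 8.27, 8.27 and 9.48 in NOD and 9.0, 8.42, 9.13 and 8.10 in C57BL/6 DCs at steady state (0.01 ± 0.32, adjusted p = 0.986). With LPS it was at 11.35, 9.76, 10.34 and 9.74 in NOD and 11.76, 11.75 and 10.96 in C57BL/6 DCs (−1.19 ± 0.37, adjusted p = 0.0899). The groups overlapped, since NOD replicate 1 was above C57BL/6 replicate 4. The call was lost without C57BL/6 replicate 2 (−1.05) or 3 (−1.06) or NOD replicate 2 (−1.01), 3 (−1.21) or 4 (−1.0), and without NOD replicate 1 the difference was −1.54.

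Ms4a1 (CD20) in PBS culture was at 8.74, 7.33, 7.84 and 6.80 in NOD and 8.69, 9.48, 9.28 and 9.21 in C57BL/6 DCs (−1.49 ± 0.34, adjusted p = 0.0215). NOD replicate 1 reached the range of C57BL/6. At steady state it stood at 8.02, 6.97 and 9.20 in NOD and 9.23, 8.58, 9.13 and 9.16 in C57BL/6 DCs (−0.96 ± 0.40, adjusted p = 0.168), which passed with the replicate block (−0.93, adjusted p = 0.0106). Cd79b, the partner of Cd79a, was lower in PBS culture, at 9.31, 8.12, 8.88 and 8.19 in NOD and 9.67, 10.38, 9.86 and 9.43 in C57BL/6 DCs (−1.21 ± 0.27, adjusted p = 0.0204). These arrays did not overlap. In LPS culture the replicate block called 4 more B cell genes as lower in NOD, namely Ms4a1 (−2.03), Cd79b (−1.59), Pax5 (−0.88) and Blk (−0.54), with adjusted p from 0.0103 to 0.07. This block does not use NOD LPS replicate 1, the highest NOD array for 8 of the 9 genes. With all arrays and no block the differences were −1.40, −1.21, −0.64 and −0.37 (adjusted p from 0.114 to 0.492). With only that array left out and no block, Ms4a1 (adjusted p = 0.0197), Cd79b (0.0108) and Pax5 (0.0416) passed, and Blk (0.229) did not.

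Among the B cell genes 2 NOD arrays stood high. At steady state NOD replicate 6 had the highest value of 8 of the 9 genes, and in LPS culture NOD replicate 1 had the highest of 8. The mean of the 9 genes was 7.96, 7.73 and 8.77 in NOD steady state replicates 1, 4 and 6, and 9.18, 7.86, 8.31 and 7.96 in NOD LPS replicates 1 to 4. C57BL/6 DCs lay between 8.03 and 8.45 at steady state and between 8.53 and 9.20 with LPS. Cr2, a complement receptor of B cells, showed this most plainly, at 8.12, 8.28 and 9.72 in NOD and 8.58, 8.27, 8.04 and 8.27 in C57BL/6 DCs at steady state (0.41 ± 0.32, adjusted p = 0.449). Cd22, Blk, Fcer2a, Ebf1 and the B lineage factor Pax5 were within −0.25 and 0.22 of each other between the strains at steady state and were not called.

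**Figure D4:**
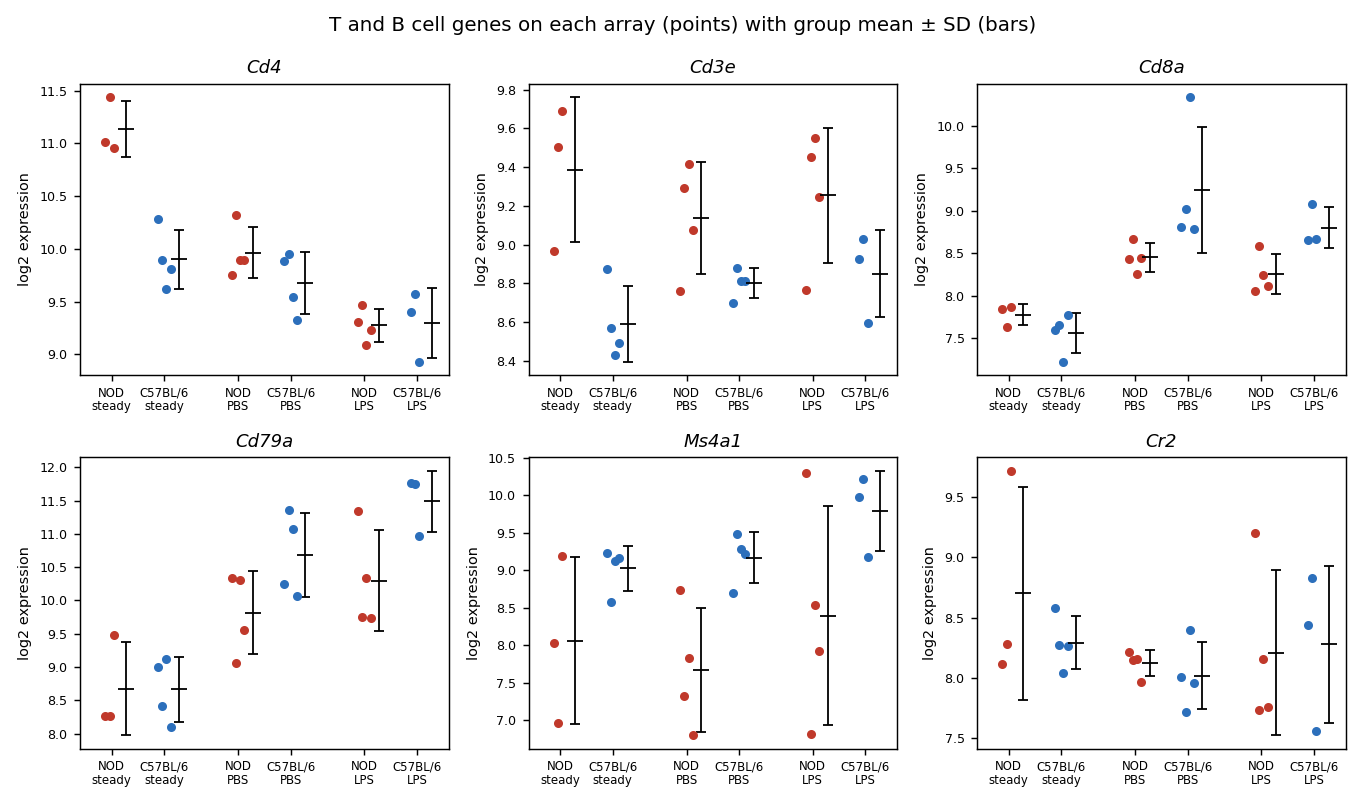
Log2 expression of 3 T cell genes (Cd4, Cd3e, Cd8a) and 3 B cell genes (Cd79a, Ms4a1, Cr2) on the y axis, on each array by group (x axis), with points for arrays and bars for the group mean ± SD. Cd4 separates the strains at steady state only, Cd8a has 1 high C57BL/6 PBS array at 10.34, and Cr2 has 1 high NOD array at 9.72 at steady state.

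Culture with PBS changed more members than the strain did, as it did for the array as a whole. In NOD DCs 15 of 43 genes rose and 12 fell (background 37.8% higher and 29.3% lower), and in C57BL/6 DCs 17 rose and 10 fell (42.1% higher and 30.5% lower). Members were thus called no more often than all probe sets. Both strains raised 12 genes, namely Gzmb, Il2rb, Cd160, Txk, Gata3, Il7r, Cd6, Zap70, Bcl11b, Cd8a, Cd79a and Pax5, and lowered 6, namely Ncr1, Klrd1, Klra8, Rora, Cd247 and Cd28. The 2 culture comparisons share no array. Blk, Cd22, Cd3d, Cr2 and Lef1 passed in neither culture comparison nor in a strain comparison.

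The largest rise was that of Gzmb, at 11.34, 12.37, 11.72 and 12.19 in NOD PBS cultures against 7.18, 7.26 and 7.31 at steady state (4.66 ± 0.21, adjusted p = 7.9e-09). In C57BL/6 DCs it was at 12.17, 12.69, 11.83 and 12.79 in PBS culture and 8.43, 8.25, 8.57 and 8.98 at steady state (3.81 ± 0.21, adjusted p = 3.19e-08). Il7r was next, at 13.09, 13.22, 12.94 and 13.14 in NOD PBS cultures against 10.07, 9.37 and 10.13 at steady state (3.24 ± 0.18, adjusted p = 3.66e-08). For C57BL/6 it was at 13.09, 13.12, 12.94 and 13.30 in PBS culture and 9.56, 9.37, 9.58 and 9.73 at steady state (3.55 ± 0.12, adjusted p = 4.5e-10). Both genes were thus raised on every cultured array, and the dimmer probe set of Il7r rose too (3.95 and 4.50).

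Il2rb, the receptor chain shared by interleukin-2 and interleukin-15, was at 9.29, 10.23, 9.41 and 10.07 in NOD PBS cultures against 7.51, 8.43 and 8.11 at steady state (1.74 ± 0.26, adjusted p = 0.000136). In C57BL/6 DCs it was at 10.83, 11.41, 10.72 and 11.08 in PBS culture and 9.03, 8.89, 9.35 and 8.93 at steady state (1.96 ± 0.16, adjusted p = 6.64e-07). Cd160 was at 8.81, 8.90, 9.40 and 9.05 in NOD PBS cultures against 7.34, 7.38 and 7.45 at steady state (1.65 ± 0.15, adjusted p = 2.1e-06), and rose by 1.86 in C57BL/6. Il2rb was thus lower in NOD both before and after it rose (−1.03 at steady state and −1.26 in PBS culture). Cd79a rose by 1.14 in NOD and by 2.02 in C57BL/6 DCs (adjusted p = 0.0141 and 1e-04), and reached 10.25, 11.36, 11.07 and 10.06 in C57BL/6 PBS cultures.

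Of the 16 NK genes 6 were higher and 5 lower in culture in NOD, and 6 higher and 6 lower in C57BL/6 DCs. These counts were near the shares of all probe sets, 37.8% higher and 29.3% lower in NOD and 42.1% and 30.5% in C57BL/6. Among those that fell in both strains, Ncr1 fell by 0.49 in NOD and by 0.40 in C57BL/6 DCs, Klrd1 by 1.06 and 0.46, and Klra8 by 1.0 and 0.67. Tbx21, Eomes and Nkg7 changed by −0.06 to 0.26 in NOD and by −0.21 to 0.24 in C57BL/6 DCs without a call. Klrk1 rose in C57BL/6 DCs (0.89 ± 0.14, adjusted p = 0.000187) and was uncalled in NOD (0.33, adjusted p = 0.206), and Klre1 fell in C57BL/6 DCs (−0.39, adjusted p = 0.0494). The call of Ncr1 in C57BL/6 DCs was lost without PBS replicate 3 (−0.24), and that of Klre1 without steady state replicate 1 (−0.34) or 6 (−0.29) or PBS replicate 1 (−0.33) or 3 (−0.30).

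**Figure D5:**
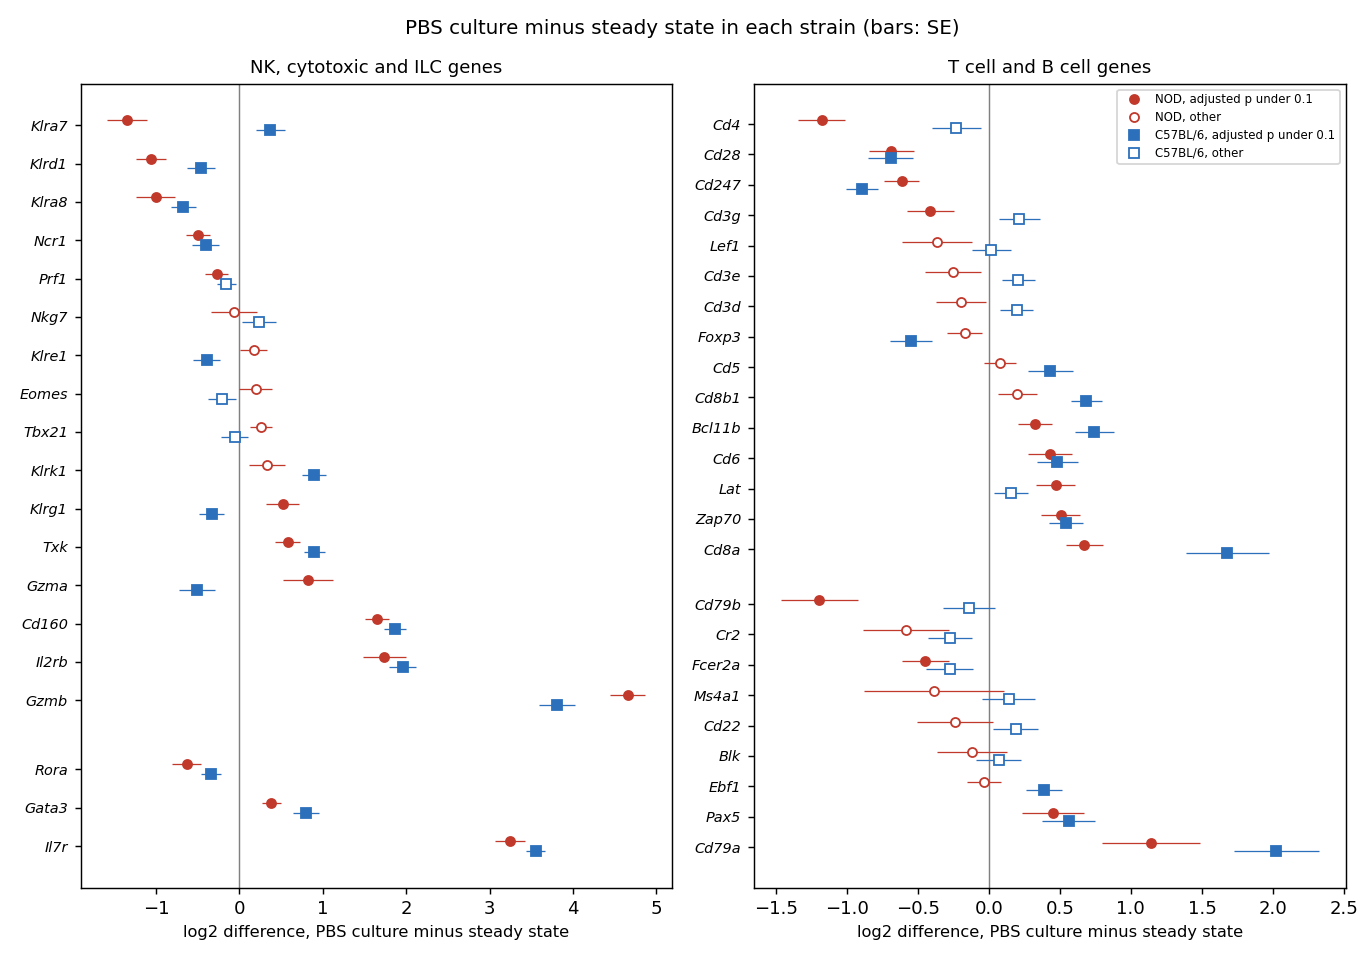
Log2 difference, PBS culture minus steady state (x axis), of each of the 43 genes (y axis) in NOD and C57BL/6 DCs, with SE bars and filled symbols for an adjusted p under 0.1. Gzmb (4.66 in NOD, 3.81 in C57BL/6) and Il7r (3.24 and 3.55) stand apart, and Klra7, Gzma and Klrg1 lie on opposite sides of 0 in the 2 strains.

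The change with culture differed between the strains for 4 members, as tested by the interaction (6.8% of all probe sets). Klra7 fell in NOD DCs, where it was at 6.12 to 6.70 in PBS culture and 7.39 to 8.50 at steady state, and stood at 7.69 to 8.38 in PBS culture and 7.39 to 8.07 at steady state in C57BL/6 DCs (−1.71 ± 0.32, adjusted p = 0.00396). Gzma rose in NOD (0.83 ± 0.30, adjusted p = 0.0331) and fell in C57BL/6 DCs (−0.51 ± 0.22, adjusted p = 0.0584), a difference of 1.33 ± 0.41 (adjusted p = 0.0831). Klrg1 was at 8.92, 9.53, 9.34 and 9.56 in NOD PBS cultures and 8.41, 9.17 and 8.87 at steady state, and in C57BL/6 DCs at 8.97, 9.26, 8.50 and 8.96 in PBS culture and 9.20, 9.11, 9.35 and 9.35 at steady state (0.85 ± 0.26, adjusted p = 0.0814). Cd4 fell in NOD (−1.18 ± 0.17, adjusted p = 8.86e-05) and changed by −0.23 in C57BL/6 DCs, a difference of −0.95 ± 0.25 (adjusted p = 0.0394).

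These interactions were not equally firm. Leaving out 1 array ended the call of Gzma in 11 of 15 cases and that of Klrg1 in 10 of 15. The interaction of Gzmb (0.84, adjusted p = 0.195) did not pass, but did with the replicate block (0.84, adjusted p = 0.0928). The call of Cd4 was lost without NOD steady state replicate 4 (−0.80), and that of Klra7 was kept in all 15. Within NOD, the rises of Klrg1 (0.32) and Gzma (0.74) were also lost without steady state replicate 1. Within C57BL/6, the rise of Klra7 (0.37, adjusted p = 0.0817) was lost without any 1 array other than steady state replicate 6 or PBS replicate 3. The fall of Gzma was lost without steady state replicate 1 (−0.48) or 6 (−0.47) or PBS replicate 1 (−0.37) or 3 (−0.34), and that of Klrg1 without steady state replicate 5 (−0.30) or 6 (−0.30) or PBS replicate 3 (−0.19). The dimmer probe set of Klra7 gave an interaction of −0.61, also called, and that of Cd4 gave −0.44, which was not. For Cd8a, uncalled by its brightest probe set (−1.0, adjusted p = 0.153), a dimmer one gave −1.57, which was called, and for Zap70 a dimmer one gave 0.92, called as well.

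Other T and B cell genes changed with culture by smaller amounts. Cd8a rose in NOD DCs (0.67 ± 0.13, adjusted p = 0.000979) and in C57BL/6 DCs (1.68 ± 0.29, adjusted p = 0.000366), and Cd8b1 rose in C57BL/6 DCs (0.69) and was not called in NOD (0.20), with an interaction of −0.48 (adjusted p = 0.133). Zap70 rose by 0.51 in NOD and 0.54 in C57BL/6 DCs, and Cd6 by 0.43 and 0.48, the NOD value of Cd6 being lost without steady state replicate 1 (0.34). Lat, an adaptor of T cell receptor signalling, rose in NOD (0.47), and Cd5 (0.43) and Ebf1 (0.39) in C57BL/6 DCs. Foxp3 fell in C57BL/6 DCs (−0.55). Pax5 rose by 0.45 in NOD, lost in 5 of 7 cases, and by 0.56 in C57BL/6 DCs. Cd79b fell in NOD DCs (−1.19 ± 0.27, adjusted p = 0.00279), as did Cd3g (−0.41, lost in 4 of 7 cases when 1 array was left out) and the low-affinity IgE receptor gene Fcer2a (−0.45), which was lost without steady state replicate 6 (−0.27). Cd28 fell by 0.69 in both strains.

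Some of these changes depended on the probe set. For Cd247, a signalling chain of the T cell and NK receptors, the brightest probe set fell, at 9.23, 9.35, 9.56 and 9.46 in NOD PBS cultures and 9.95, 10.01 and 10.08 at steady state (−0.61), and by 0.89 in C57BL/6. Its dimmest one rose, at 5.95, 6.44, 6.44 and 6.35 in NOD PBS cultures and 5.74, 5.97 and 5.77 at steady state (0.47), and by 0.90 in C57BL/6, but was below the lower quartile of the array on all 7 steady state arrays. For Bcl11b the brightest probe set rose in NOD DCs, at 8.34, 8.68, 8.55 and 8.40 in PBS culture and 8.19, 8.20 and 8.12 at steady state (0.33, lost without steady state replicate 6, 0.30), while a dimmer one fell, at 6.30, 6.92, 6.87 and 6.82 in PBS culture and 7.50, 7.03 and 7.47 at steady state (−0.60). The brighter probe set of Prf1 fell in NOD DCs (−0.27, adjusted p = 0.0989, lost in 6 of 7 cases) and the dimmer one rose (0.85 in NOD and 1.21 in C57BL/6).

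Ebf1, a B lineage factor, was at 7.24, 7.74, 7.64 and 7.49 in C57BL/6 PBS cultures and 7.01, 7.05, 7.31 and 7.18 at steady state by the brightest probe set (0.39). A dimmer one of Ebf1 was at 5.01, 5.23, 5.89 and 5.29 in PBS culture and 5.90, 5.56, 5.89 and 5.80 at steady state and fell (−0.43), and was below the lower quartile on all of these 8 arrays. For Rora, 5 probe sets fell in NOD DCs beside the brightest one (−0.63), and 1 rose, at 7.39, 7.49, 7.22 and 7.22 in PBS culture and 6.53, 6.93 and 6.96 at steady state (0.52). Smaller disagreements in C57BL/6 DCs concerned Ms4a1, whose dimmer probe set fell to 8.31, 8.72, 8.66 and 8.11 in PBS culture against 9.34, 8.53, 9.18 and 9.18 at steady state (−0.61, while the brighter one changed by 0.14). Those of Lef1 were at 6.59, 6.86, 6.44 and 6.54 in PBS culture and 6.26, 6.04, 6.08 and 6.18 at steady state (0.47, against 0.02 by the brighter one). For Fcer2a the dimmer probe set was at 6.00, 5.97, 5.76 and 5.66 in PBS culture and 6.25, 6.00, 6.15 and 6.01 at steady state (−0.25, called, against −0.27 by the brighter one, not called), and it was below the lower quartile on 16 of 22 arrays. In all, the probe sets of 15 of the 19 members with more than 1 differed in call in some comparison.

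LPS changed few members beyond PBS in the fits that leave arrays unpaired. In NOD DCs 1 of 43 was called (background 1.68% higher and 2.08% lower) and in C57BL/6 DCs none was (0.715% higher and 0.762% lower), with 5 and 6 members at an unadjusted p under 0.05. Cd4 was at 9.31, 9.47, 9.09 and 9.23 in NOD LPS cultures, against 9.75, 10.32, 9.90 and 9.89 in NOD PBS cultures, with no overlap (−0.69 ± 0.14, adjusted p = 0.0252). In C57BL/6 DCs Cd4 was at 9.40, 9.57 and 8.93 with LPS and 9.89, 9.95, 9.54 and 9.32 with PBS (−0.37, adjusted p = 0.565). A dimmer probe set of Cd8a, at 7.43, 7.62 and 7.24 with LPS and 8.18, 8.47, 8.24 and 7.92 with PBS, was called lower in C57BL/6 DCs (−0.77). The response to LPS was not shown to differ between the strains for any member (0 of 43 called by limma, and 0 at an unadjusted p under 0.05), where 0.0244% of all probe sets were called.

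With the replicate number as a block, 8 of 43 members were called for LPS in NOD DCs, 7 lower and 1 higher, against 5.21% lower and 4.29% higher among all probe sets. Besides Cd4, these were Klrk1 (−0.72, adjusted p = 0.0196), Klre1 (−0.49, adjusted p = 0.014), Gzma (−0.37, adjusted p = 0.0425), Gzmb (−0.54, adjusted p = 0.0193), Klra8 (−0.39, adjusted p = 0.0906) and Cd28 (−0.55, adjusted p = 0.0505), all lower with LPS, and Cd79b (0.59, adjusted p = 0.0335), which was higher. Klrk1 was at 8.98, 9.73, 9.20 and 8.85 in NOD LPS replicates 1 to 4 and 9.61, 10.49, 9.54 and 10.00 in the PBS replicates of the same numbers, lower in 4 of 4. Pax5 was the 1 member called with the block in C57BL/6 DCs (0.80, adjusted p = 0.0771), where 0.819% of all probe sets were higher and 1.3% lower and C57BL/6 PBS replicate 1 had no partner.

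Other genes of these cell types were read from lists written with earlier results of these data known. Among 16 other NK genes, 8 were lower and 2 higher in NOD DCs at steady state (7.94% lower and 7.09% higher among all probe sets), with a median of −0.53. Among them were Klrc1 (NKG2A, the partner of CD94, −2.06), Klrc2 (NKG2C, −1.53) and Xcl1, a chemokine of NK and T cells that attracts DCs (−1.45). Klrc2 was below the lower quartile of the array on all 3 NOD steady state arrays and Klrc1 on 1. In PBS culture 9 were lower and 1 higher (5.09% and 4.78%), and in LPS culture 8 and 1 (4.88% and 5.03%). The steady state shares of 7.94% lower and 7.09% higher also stand beside the counts that follow. Of 7 other ILC genes 3 were higher (Ahr by 0.86, Zbtb16 by 0.55 and Icos by 0.51) and 1 lower (Il18r1, −0.78) at steady state. Of 15 other T cell genes 1 was higher and 5 were lower, led by Cd2 (−1.06), Cd27 (−0.75) and Sh2d1a (−0.71), which NK cells use as well. Among 14 other B cell genes 6 were lower and 2 higher, with Cd55 (−1.38), Pou2af1 (−1.0) and Spib (0.71) the largest, and DCs express several of these. Of these 14, 7 were lower and 0 higher in PBS culture (median −0.66, 5.09% and 4.78% among all probe sets). With LPS these counts were 5 and 0 (median −0.77, 4.88% and 5.03% among all probe sets).

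The cytokine system that NK cells depend on was read beside Il2rb and Il7r. Of 9 genes, Il15 was lower (−0.92) and Il15ra, which presents interleukin-15, higher (0.40) in NOD DCs at steady state. The other 7 were not called, and these counts were near the shares of all probe sets (7.94% lower and 7.09% higher). In PBS culture Il15 rose by 3.02 in NOD and 2.44 in C57BL/6 DCs, Il15ra by 4.08 and 4.39, and Il2ra, the alpha chain of the interleukin-2 receptor, by 3.50 and 3.86. None of these 3 differed between the strains in PBS culture (−0.34, 0.08 and −0.35). With culture 11 of the 16 other NK genes were higher in each strain, and 2 were lower in NOD and 3 in C57BL/6 DCs (37.8% higher and 29.3% lower among all probe sets in NOD, 42.1% and 30.5% in C57BL/6). Their medians were 0.70 in NOD and 0.88 in C57BL/6 DCs, against 0.12 and 0.15 over all probe sets. Gzmc rose by 5.88 in NOD and 6.71 in C57BL/6 DCs and was below the lower quartile of the array on all 7 steady state arrays.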

How the data were processed

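Pancreatic CD11c+CD8α- DCs of NOD and C57BL/6 mice had been hybridised to 22 Affymetrix mouse genome arrays after NuGEN amplification. The authors deposited log2 values made by RMA in BRB-ArrayTools, of a version the sources used here do not give. RMA normalizes all arrays together, so shifts shared by most probe sets are removed. The tables carry no read depth, and the number of arrays limits the precision.

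Arrays were grouped by their labels. Differences were tested with limma 3.58.1 in R 4.3.3 (lmFit and eBayes) on the arrays of the compared groups, with no intensity filter, over 45037 probe sets after 64 control probe sets were left out, with p adjusted by Benjamini-Hochberg and a call below 0.1. The scripts were tested on simulated data. Genes were named from the platform annotation (34945 probe sets name 1 gene, 932 several and 9160 none).

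The members and lists were chosen with earlier results of these data known. Arrays were shown one by one for the steady state calls with the largest change (up to 6 NK and 3 T or B cell genes, and every ILC gene), up to 3 calls of each other comparison, Ncr1, Cd3e, Cd4, Cd8a and Cd79a, and members whose probe sets disagreed. Some T and B cell genes outside this rule (Ms4a1, Cd79b, Cr2, Foxp3, Cd8b1 and others) were shown after their values were seen.

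Arrays with the same number deviated together in the 3 strain comparisons (r from 0.109 to 0.433) and the 2 LPS comparisons (0.241 to 0.487). In the culture comparisons they did not do so throughout (−0.0328 to 0.277). The main fits treated all arrays as unpaired, and the pairing entered only through the replicate block, given as an alternative. Arrays with no partner (C57BL/6 steady state replicate 5, NOD LPS replicate 1 and, for LPS in C57BL/6, PBS replicate 1) add nothing to a blocked difference. Each p-value measures the spread between pools of mice. Alternatives were an adjusted p under 0.05, a joint fit of the 22 arrays, the brighter 50% of probe sets alone, median centring, an intensity trend with robust spread, the replicate block, averaging the probe sets of each gene, and leaving out each array.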

Additional observations from a re-analysis of the deposited data

Results flagged for a closer look

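In groups of 4 arrays, 3 of 172 sets of values held an array far from the others by the gap to the nearest over the range of the group, and chance alone would single out about 1 in 20. Cd5 was at 7.43 in C57BL/6 steady state replicate 1 and between 6.88 and 6.94 in the others (0.899). Cd8a was at 10.34 in C57BL/6 PBS replicate 3 and between 8.79 and 9.02 in the others (0.847). Ms4a1 was at 8.58 in C57BL/6 steady state replicate 4 and between 9.13 and 9.23 in the others (0.84).

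The change with culture differed between NOD and C57BL/6 DCs by the interaction test for 4 of 43 members, against 6.8% of all probe sets. It was more positive in NOD for Klrg1 (0.85) and Gzma (1.33), and more negative in NOD for Klra7 (−1.71) and Cd4 (−0.949). The call was lost in 10 of 15 cases for Klrg1 and in 11 of 15 for Gzma when 1 array was left out.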

How the results depend on the processing

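In the strain comparisons, 12 of 17 members called at steady state, 13 of 14 called with PBS and 10 of 16 called with LPS kept their call and direction in every setting that tested them. So did 17 of 27 (NOD) and 15 of 27 (C57BL/6) members called with culture and 1 of 4 interactions. Members among the dimmer 50% of probe sets were not tested in the setting that left these out, and that setting does not count against them. None of the strain calls was reversed. A joint fit of the 22 arrays ended the steady state calls of Klrk1 (adjusted p = 0.105), Txk (0.172), Gata3 (0.174) and Cd5 (0.11), the LPS call of Cd8a (0.208) and the interactions of Klrg1 (0.138) and Gzma (0.155). With an intensity trend, the calls of Cd79a with LPS (0.164), of the Gzma interaction (0.12) and of Cd5 were lost. The count of members called in LPS culture was 10 without the dimmer 50% of probe sets, where fewer were tested. For LPS against PBS, 1 fit of all arrays called 3 members in NOD and 1 in C57BL/6, and the replicate block 8 in NOD and 1 in C57BL/6. The interaction of strain and culture gave 4 members, but 2 at an adjusted p under 0.05, 2 in 1 fit of all arrays and 7 with the mean over probe sets. With that mean, culture in NOD DCs turned to 0.287 for Prf1 (adjusted p = 0.0826) and to −0.0359 for Bcl11b (adjusted p = 0.792), whose probe sets disagree.

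Leaving out 1 array gave 15 to 19 members at steady state, 13 to 16 in PBS culture, 11 to 19 in LPS culture, 1 to 2 for LPS in NOD (2 without NOD LPS replicate 2 or 4), 23 to 28 and 24 to 27 for culture in NOD and C57BL/6, and 2 to 6 for the interaction (2 without C57BL/6 steady state replicate 1, 5 or 6, NOD steady state replicate 6 or NOD PBS replicate 4). With the replicate block, 19, 19 and 21 members were called between the strains at steady state, in PBS and in LPS culture. In the culture comparisons it called 23 in NOD and 22 in C57BL/6, and 6 for the interaction. There, arrays of 1 number did not deviate together throughout, over 2 pairs in each strain. The causes were not tested.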
